A study of Mus musculus with 6 samples.

Results

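The beta and gamma subunits of heterotrimeric G proteins were described through 10 genes, 6 gamma genes (Gng2, Gng3, Gng4, Gng7, Gng11 and Gng12) and 4 beta genes (Gnb1, Gnb2, Gnb4 and Gnb5), of 19937 genes tested. The members were chosen by gene symbol: each is the transcript cluster, the probe group that stands for a gene on the array, annotated with exactly that symbol. Had a gene been covered by several clusters, the brightest on average would have stood for it, but all 10 members had 1 cluster each, so the levels decided nothing. The family was proposed with the difference between the treatments already known, so the values of the members are a description and give no independent support to any of them.

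Neurospheres, the floating colonies that precursor cells form in culture, were grown from the hippocampus of adult male C57BL/6J mice aged 8 to 12 weeks in medium with EGF and bFGF. Norepinephrine at 10 µM (N) was present in 3 cultures and potassium chloride at 15 mM (K) in the other 3. RNA of each biological replicate, from day 14 of culture, was read on 1 Affymetrix array that probes whole transcripts. The labels speak of small neurospheres without a size and do not say whether each replicate is a separate animal, so the p-values measure only the spread between these samples. Every value is on the log2 scale of the robust multi-array average (RMA) that the authors deposited, and a log2FC is N minus K. No untreated culture is among the arrays, so a difference cannot be assigned to either treatment.

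A G protein is built of an alpha subunit, which binds guanine nucleotide, and a beta-gamma pair that stays together as a unit. When a receptor is activated by its ligand, such as an adrenoceptor by norepinephrine, the alpha subunit and the beta-gamma pair separate and each acts on its own effectors. The pair is held at the membrane by a lipid group on the gamma subunit, and in neurons it opens potassium channels of the GIRK type and inhibits presynaptic calcium channels.

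The arrays had similar medians, between 6.30 and 6.35 in N and between 6.30 and 6.40 in K. Their spreads differed more: the span from the lower to the upper decile was 5.07 to 5.14 on the N arrays. On K replicate 2 the span was 5.11, against 4.89 on K replicate 1 and 4.85 on K replicate 3. K replicate 2 did not stand with its own group: its mean correlation over all clusters was 0.969 with the N arrays and 0.954 with the other K arrays. For K replicate 1 these values were 0.955 and 0.954, and K replicate 3 had the lowest of all arrays, 0.943 with the N arrays and 0.948 with the other K arrays. Of 7 neural precursor markers measured, 6 had means above 6.34, the median of all values, in both groups, and Prom1 lay below it, at 6.16 in N and 5.76 in K. In bulk samples a change in the share of a cell type and a change of RNA per cell cannot be told apart.

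Gng3, a gamma subunit known for its abundance in the brain and in neurons, was the member with the widest separation. It read 8.78, 9.21 and 9.05 in N, against 6.89, 6.54 and 7.27 in K. All 3 N arrays lay above all 3 K arrays, and the lowest N array exceeded the highest K array by 1.51. Gng3 was 4.33-fold higher in N than in K (log2FC 2.12, SE 0.20, 95% confidence interval 1.66 to 2.57, adjusted p = 0.0228 by limma over all genes). In size of log2FC it ranked 4 among the 19937 genes. The spread within a group was 0.22 in N and 0.36 in K (SD, n = 3 each). An exact two-sided permutation test of Gng3 alone gave p = 0.1, the smallest value that 3 arrays against 3 allow. The same test gave 0.1 for Gng2, Gng12 and Gnb4. It therefore only restates that the groups of a gene do not overlap.

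The log2FC of Gng3 lay between 1.94 (without K replicate 2) and 2.30 (without K replicate 3) over 15 other ways of processing, and it passed the threshold in 9 of them. The adjusted p of limma was 0.0691 without N replicate 1, 0.0768 without N replicate 2, 0.0761 without N replicate 3 and 0.0743 without K replicate 1. It was 0.463 in an ordinary linear model without moderation of the variance and 0.269 when all transcript clusters were tested.

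**Figure D1:**
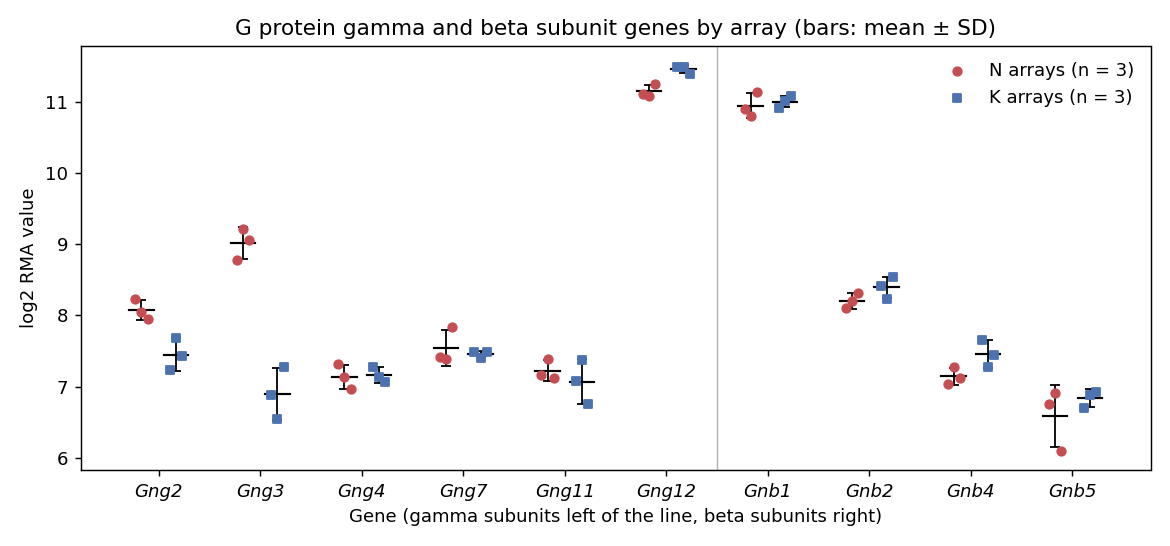
Log2 RMA value of each of the 10 members on each array, with N arrays left of K arrays, points for arrays and lines for group means. Gng3 is the gene whose N arrays (8.78 to 9.21) lie farthest from its K arrays (6.54 to 7.27), and most other members overlap or nearly touch.

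Of 8 astrocyte markers, all measured, 1 was called, higher in N as Gng3 was, beside 0.155% of all genes tested. In 5 of the 8 all N arrays lay above all K arrays, beside 5.78% of all genes tested. The log2FC of the list was positive for 7, with a median of 0.51, and the exception was S100b at -0.47 (SE 0.30, adjusted p = 0.743 by limma), with groups that overlapped. Leaving out single arrays moved S100b between -0.76 (without K replicate 3) and -0.18 (without K replicate 1). The mean level of the list lay between 8.24 and 8.67 over the N arrays and between 7.78 and 7.87 over the K arrays. Gfap, the intermediate filament protein of astrocytes, was higher in N than in K (log2FC 1.66, SE 0.21, adjusted p = 0.0358 by limma), a call that held in 4 of 15 alternatives. The water channel Aqp4 had a log2FC of 1.56 (SE 0.24, adjusted p = 0.0738). Of 10 neuronal and neuroblast markers 0 passed the test. At an unadjusted p under 0.05 by limma were 4 (3 higher and 1 lower in N), beside 8.54% of all genes tested. The 10 markers had 5 positive and 5 negative log2FC and a median of 0.04. Their mean level lay between 6.60 and 6.66 in N and between 6.32 and 6.64 in K. All N arrays lay above all K arrays for 3 of the 10, beside 5.78% of all genes tested, and below them for 1, beside 7.55%. Dcx, Rbfox3, Syt1 and Stmn2, with a negative log2FC, had means below 6.34, the median of all values, in both groups. So did Neurod1, with a positive one. Tubb3 and Nefl, also positive, had means below 6.34 in K only (6.07 and 5.78). The synaptic protein Snap25 had a log2FC of 0.81 (SE 0.21, adjusted p = 0.291) with all N arrays above all K arrays, and the neurofilament light chain Nefl one of 0.64 (SE 0.20, adjusted p = 0.398) with groups that overlapped. Map2, a protein of neuronal microtubules, had one of -0.32 (SE 0.11, adjusted p = 0.478) with all N arrays below all K arrays. The part of these cell types in the difference of Gng3 was not tested.

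The 7 neural precursor markers went both ways, with a median log2FC of 0.00095 and 0 calls by limma. At an unadjusted p under 0.05 were 3, beside 8.54% of all genes tested. All N arrays lay above all K arrays for the intermediate filament gene Vim (log2FC 0.44, SE 0.11, adjusted p = 0.267) and for Prom1 (0.40, SE 0.11, adjusted p = 0.350). They lay below them for Nes, another intermediate filament gene (-0.53, SE 0.16, adjusted p = 0.390). The median log2FC was -0.13 for 7 oligodendrocyte lineage markers, -0.16 for 6 microglia markers, -0.05 for 6 endothelial markers and 0.05 for 6 pericyte and fibroblast markers. Of these 4 lists 0 genes passed the test of limma and 0 were at an unadjusted p under 0.05.

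Gng3 lies on the minus strand of chromosome 19 (chr19:8836929-8839246, GRCm38.p6), a compact gene of 2318 bp. Bscl2, which encodes seipin, a protein of lipid droplet formation, lies on the plus strand at chr19:8837467-8848683 and overlaps 1780 bp of Gng3. Bscl2 has 3 start sites in RefSeq: 1 lies 1779 bp inside Gng3, and the others lie 82 and 1257 bp upstream of the Gng3 start. The 300-base window around the Gng3 start (250 bases before it and 50 after it, RefSeq) is shown because it carries the member that separated the groups and the start of its neighbour. Capitals mark the 181 bases that also lie in a Bscl2 window of the same kind. It covers chr19:8839197-8839496 on the minus strand.
Gng3: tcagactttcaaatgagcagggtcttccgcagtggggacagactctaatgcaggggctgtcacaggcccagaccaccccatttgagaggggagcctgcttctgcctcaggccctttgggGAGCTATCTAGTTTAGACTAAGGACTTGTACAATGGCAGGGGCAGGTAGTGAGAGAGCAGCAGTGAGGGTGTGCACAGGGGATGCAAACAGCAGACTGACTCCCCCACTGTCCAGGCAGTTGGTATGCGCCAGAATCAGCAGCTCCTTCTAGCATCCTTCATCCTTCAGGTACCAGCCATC

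Bscl2 on the same stretch of chromosome did not follow Gng3. It read 8.24, 7.82 and 8.43 in N, against 8.10, 7.69 and 8.23 in K. The groups overlapped, and its log2FC of 0.15 (SE 0.20, 95% confidence interval -0.30 to 0.61) did not pass the test of limma (adjusted p = 0.879). The interval of Bscl2 ends below that of Gng3, which starts at 1.66, but the difference between the genes was not itself tested. Hnrnpul2, 2785 bp from the other end of Gng3, had a log2FC of 0.04 (SE 0.16, adjusted p = 0.970).

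**Figure D2:**
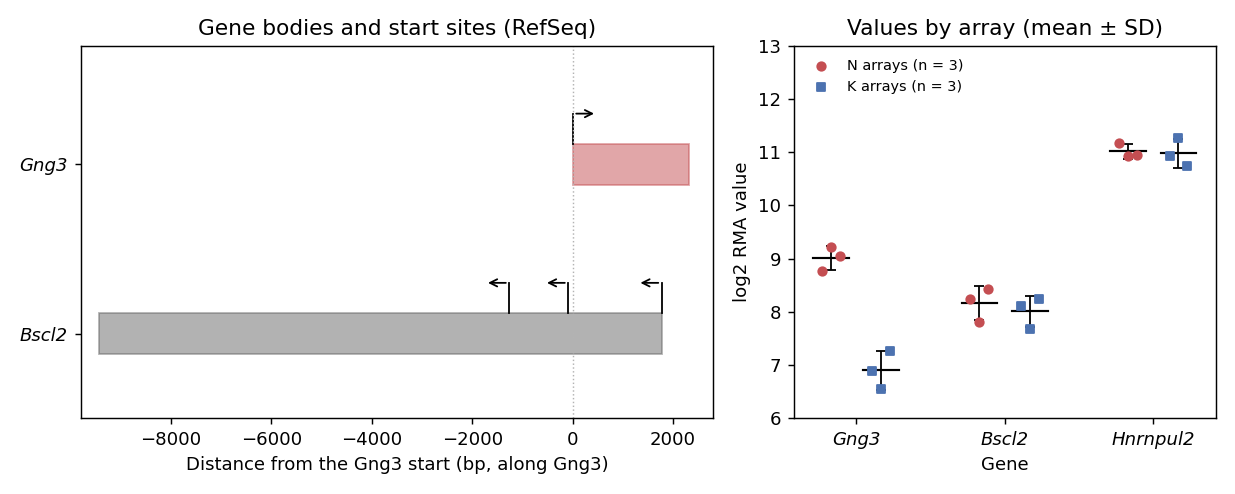
Left, the extent of Gng3 and Bscl2 as bars and their start sites as arrows, by distance from the Gng3 start in bp along its strand; right, log2 RMA values of Gng3, Bscl2 and Hnrnpul2 on the 3 N and 3 K arrays, with mean ± SD. The genes Gng3 and Bscl2 share 1780 bp on opposite strands, and the N arrays stand above the K arrays for Gng3 alone.

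Gng2, a widely used gamma subunit that is often studied together with the beta subunit of Gnb1, was the other gamma gene with all N arrays above all K arrays. It read 8.23, 8.05 and 7.96 in N, against 7.24, 7.69 and 7.43 in K. The gap between the groups was 0.27, and the log2FC of 0.63 (SE 0.15, 95% confidence interval 0.29 to 0.97, 1.55-fold) did not pass the test over all genes (unadjusted p = 0.00264, adjusted p = 0.263 by limma). K replicate 2 was the highest K array, and without it the log2FC of Gng2 was 0.75 (adjusted p = 0.118).

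Gng12, another gamma subunit, moved the other way. It read 11.11, 11.08 and 11.25 in N, against 11.49, 11.49 and 11.39 in K. All N arrays lay below all K arrays with a gap of 0.14, and the log2FC of -0.31 (SE 0.12, 95% confidence interval -0.57 to -0.04) had an unadjusted p of 0.0280 and an adjusted p of 0.518 by limma. In K it was 1.24-fold higher.

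Gng4, a gamma subunit of the brain, read 7.31, 7.13 and 6.97 in N, against 7.28, 7.14 and 7.06 in K. The groups interleaved, with a log2FC of -0.02 (SE 0.13, 95% confidence interval -0.33 to 0.29). Gng7, the gamma subunit that serves the olfactory-type alpha subunit in the striatum, read 7.41, 7.39 and 7.84 in N, against 7.48, 7.41 and 7.49 in K. N replicate 3 stood above the other 5 arrays, which lay within 7.39 and 7.49. The log2FC of Gng7 was 0.09 (SE 0.15) with this array and -0.058 without it. Gng11, which carries a farnesyl rather than a geranylgeranyl group, read 7.17, 7.39 and 7.12 in N, against 7.08, 7.38 and 6.76 in K. K replicate 3 was the lowest array, and the log2FC of 0.15 (SE 0.17) was -0.0018 without it.

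**Figure D3:**
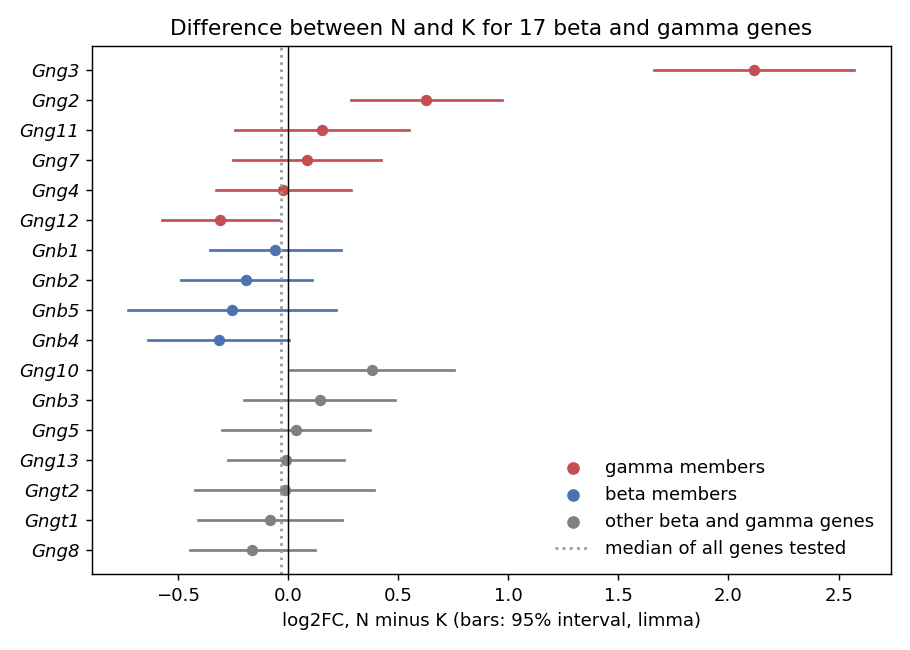
Log2FC (N minus K) of the 17 beta and gamma genes with 95% confidence intervals of limma, gamma members in red, beta members in blue, the other genes of the family in grey and the median of all genes as a dotted line. The interval of Gng3 (1.66 to 2.57) lies above all others drawn.

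The windows of Gng2 and Gng4 are shown as examples beside the window of Gng3. They hold matches to short patterns searched for factors of cAMP and activity signalling, as windows of some other members do. The Gng3 window holds none. The motifs searched on both strands were the full CRE (TGACGTCA), its core TGACG, which lies within the CRE, and a loose AP-1 pattern, TGANTCA. In this pattern N is any base. The TATA motif TATAAA and the GC box GGGCGG were searched as well. Of 32851 RefSeq windows of this length, 1.79% hold the full CRE, 20.8% the core, 7.81% AP-1, 13.6% TATA and 35.7% the GC box. Windows were found for 8 of the 10 members, 11 windows in all, and the full CRE was in 0 of them. The Gng3 window held 0 matches to any of the 5 motifs. The Gng2 window (chr14:19976644-19976943, minus strand) held 1 match to the loose AP-1 pattern (TGATTCA), in capitals. The second Gng4 window (chr13:13784057-13784356, plus strand) held 2 cores, in capitals, and 2 GC boxes.
Gng2: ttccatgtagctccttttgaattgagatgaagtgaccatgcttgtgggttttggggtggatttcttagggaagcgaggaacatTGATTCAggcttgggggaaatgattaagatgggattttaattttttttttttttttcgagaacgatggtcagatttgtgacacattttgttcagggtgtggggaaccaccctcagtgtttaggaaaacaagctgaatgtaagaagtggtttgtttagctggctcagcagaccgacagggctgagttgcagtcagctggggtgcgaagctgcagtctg
Gng4: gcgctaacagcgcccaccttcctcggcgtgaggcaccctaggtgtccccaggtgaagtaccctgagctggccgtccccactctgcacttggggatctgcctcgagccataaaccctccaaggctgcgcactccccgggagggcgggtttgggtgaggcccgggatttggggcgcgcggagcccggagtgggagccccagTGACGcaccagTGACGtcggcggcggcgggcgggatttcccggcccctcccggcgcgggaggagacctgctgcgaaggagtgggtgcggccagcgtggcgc

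Among the windows of the other members, the core was found 1 time in the first window of Gng7, 2 times in that of Gnb1 and 1 time in that of Gnb2. The GC box was found 5 times in the second Gng7 window, 3 times in the first Gng12 window, 4 times in that of Gnb1 and 1 time in that of Gnb2. The TATA motif was found 1 time, in the window of Gnb5. These matches are letters in a window and say nothing of a factor bound there.

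Of the beta subunits, whose blades form the propeller that holds the gamma subunit, none passed the test, and all 4 had a negative log2FC, with a median of -0.22 beside -0.03 over all genes. Gnb4 read 7.04, 7.27 and 7.12 in N, against 7.66, 7.27 and 7.45 in K. All N arrays lay below all K arrays, but by a gap of 0.00028, so N replicate 2 and K replicate 2 were practically equal. The log2FC of Gnb4 was -0.31 (SE 0.14, unadjusted p = 0.0525, adjusted p = 0.590 by limma) and -0.41 without K replicate 2 (adjusted p = 0.269). Gnb1 and Gnb2, the widely expressed beta subunits, overlapped between groups. Gnb1 read 10.91, 10.80 and 11.13 in N, against 10.92, 11.02 and 11.08 in K (log2FC -0.06, SE 0.13). Gnb2 read 8.10, 8.20 and 8.31 in N, against 8.41, 8.24 and 8.54 in K (log2FC -0.19, SE 0.13).

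Gnb5, which pairs with RGS proteins of the R7 type in place of a gamma subunit, rested on 1 array. It read 6.75, 6.91 and 6.10 in N, against 6.70, 6.89 and 6.93 in K. N replicate 3 was the lowest array and gave N an SD of 0.43. The log2FC of Gnb5 was -0.25 (SE 0.21, 95% confidence interval -0.72 to 0.22) with this array and -0.0059 without it. Without N replicate 2 it was -0.41.

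Across the family, 1 of the 10 members was called by limma at an adjusted p under 0.05, Gng3, beside 31 of 19937 genes (0.155%). At an unadjusted p under 0.05 there were 3 members, Gng2 and Gng3 higher and Gng12 lower in N, beside 1702 genes (8.54%). All N arrays lay above all K arrays for 2 members, beside 1152 genes (5.78%), and below them for 2 members, beside 1505 genes (7.55%). Since the members were picked with these results known, nothing about the family is read from the shares. Without Gng3 the other 9 members had log2FC between -0.31 and 0.63 with a median of -0.06. The gamma members had a median log2FC of 0.12, with 4 positive and 2 negative, of which Gng4 turned to 0.0062 with arrays centred on the median. For each of the 6 members whose groups overlapped, the 95% interval held values of both signs, so 3 arrays per group left its direction undecided. The interval of Gnb4, whose groups did not overlap, held both signs as well (-0.63 to 0.0043). The lowest end of these intervals was -0.72 (Gnb5) and the highest 0.55 (Gng11).

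The 7 other beta and gamma genes on the array added 0 calls (1 at an unadjusted p under 0.05, beside 8.54% of all genes tested). The nearest to Gng3 in direction was Gng10, a widely expressed gamma subunit, at 8.78, 8.81 and 8.92 in N, against 8.66, 8.58 and 8.11 in K (log2FC 0.38, SE 0.16, adjusted p = 0.569 by limma). Its groups did not overlap, its lowest value was that of K replicate 3, and the log2FC was 0.21 without that array. Gng8 had a log2FC of -0.16 (SE 0.13) and Gnb3 one of 0.14 (SE 0.15). The other 4 lay between -0.08 and 0.04.

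The alpha subunits, which determine what effector a receptor reaches, were measured for 15 of 16 genes, and 0 passed the test. At an unadjusted p under 0.05 by limma were 3, beside 8.54% of all genes tested. The median log2FC of the 15 was 0.01 beside -0.03 for all genes. Gnao1, the abundant alpha subunit of neurons, read 9.31, 8.87 and 9.46 in N, against 8.50, 8.54 and 8.64 in K. All N arrays lay above all K arrays (log2FC 0.65, SE 0.16, adjusted p = 0.268 by limma). Gna12, another alpha subunit, had a log2FC of -0.37 (SE 0.14, adjusted p = 0.515), with N below K on all arrays. Gna14, of the phospholipase C class, had one of 0.55 (SE 0.21, adjusted p = 0.525), with groups that overlapped, and 0.32 without N replicate 2.

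The receptors of norepinephrine could be described through 2 of 9 adrenoceptor genes only, and the other 7 were not analysed here. Adra1b had a log2FC of 0.13 (SE 0.12, adjusted p = 0.828) and Adra2c one of 0.07 (SE 0.12, adjusted p = 0.910). Their means lay below 6.34, the median of all values, at 6.24 in N and 6.11 in K for Adra1b and 5.46 and 5.38 for Adra2c.

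The effectors of the beta-gamma pair, potassium and calcium channels, phospholipases, adenylyl cyclases and phosphoinositide kinases, were measured for all 19 genes listed, with 0 calls by limma (2 at an unadjusted p under 0.05). Several of these genes, the GIRK channels among them, had means below 6.34, the median of all values, in both groups. Over all 19937 genes, 8.54% were at an unadjusted p under 0.05 by limma, and 8565 log2FC were positive and 11372 negative. Those of the effectors lay between -0.34 and 0.37, 4 positive and 15 negative, with a median of -0.04. Plcb3, a phospholipase C that the pair activates, had the lowest (-0.34, SE 0.14, adjusted p = 0.541), and Cacna1a, the pore of a presynaptic calcium channel, the highest (0.37, adjusted p = 0.561, and 0.23 without K replicate 1). Pik3cb, a kinase that the pair can activate, had a log2FC of -0.20 (SE 0.15), which was -0.13 without N replicate 1 and -0.11 without K replicate 1.

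Proteins that bind, fold or hold the pair, listed together with some that bind alpha subunits, were measured for 16 of 17 genes. The list had 0 calls (1 at an unadjusted p under 0.05), 3 positive and 13 negative log2FC, and a median of -0.04. Over all genes, 8.54% were at an unadjusted p under 0.05 by limma, and 8565 log2FC were positive and 11372 negative. Gpsm2, which binds alpha subunits at the cell cortex in dividing cells, had a log2FC of -0.37 (SE 0.15, adjusted p = 0.541 by limma). Rgs7bp, the membrane anchor of Gnb5 and its RGS partners, had one of 0.20 (SE 0.12, adjusted p = 0.707). Grk3, a receptor kinase brought to the membrane by the pair, had one of -0.21 (SE 0.13, adjusted p = 0.719), which was -0.13 without N replicate 1.

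Enzymes that attach the lipid of gamma subunits and process their carboxyl end were measured for all 5 genes, with 0 calls and a median log2FC of 0.10. At an unadjusted p under 0.05 by limma was 1, beside 8.54% of all genes tested. Pggt1b, the beta subunit of the geranylgeranyl transferase, read 8.39, 8.20 and 8.36 in N, against 8.17, 7.81 and 7.01 in K. All N arrays lay above all K arrays, with K replicate 3 far below the others (log2FC 0.66, SE 0.26, adjusted p = 0.541 by limma, and 0.33 without that array). Fnta, the alpha subunit that this enzyme shares with farnesyl transferase, had a log2FC of 0.54 (SE 0.28, adjusted p = 0.656), which was 0.22 without K replicate 3, and Icmt, which methylates the processed end, one of 0.10 (SE 0.12).

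**Figure D4:**
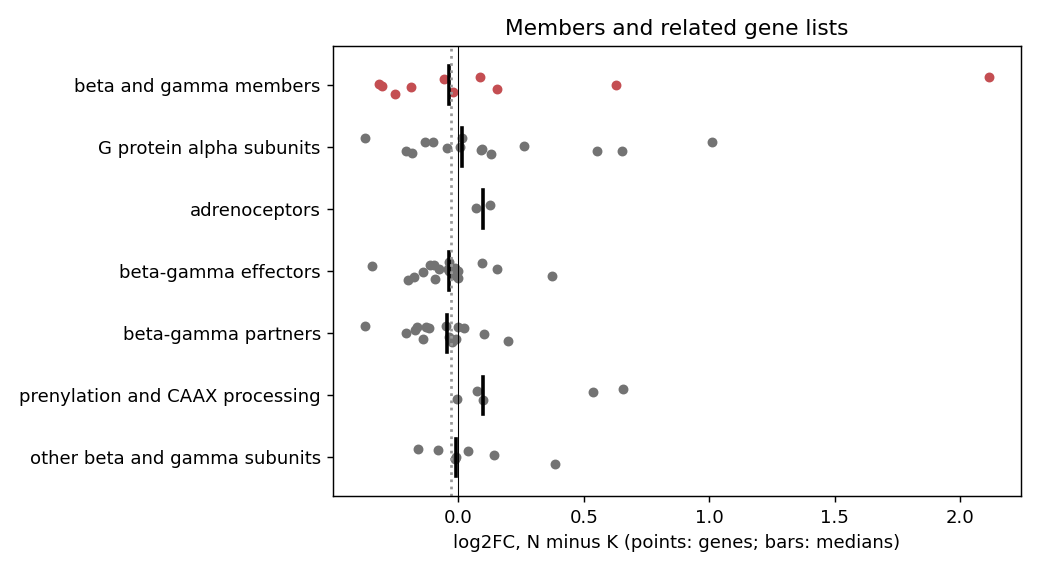
Log2FC (N minus K, horizontal axis) of the members and of the genes of 6 related lists, each point a gene, each bar the median of its list and the dotted line the median of all genes (-0.03). Gng3 at 2.12 lies apart from every other gene drawn.

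The genes whose values over the 6 arrays were most like those of Gng3 by Pearson's r were Shoc2 (0.995), Prss35 (0.986), Mamdc2 (0.979), Frmpd3 (0.978) and Rab11fip1 (0.977). They are a description over 6 arrays, 3 of each treatment. Their differences were of unlike size. Prss35, a secreted protein of the serine protease type, had a log2FC of 1.83 (SE 0.24, adjusted p = 0.0399 by limma), a call kept in 5 of 15 alternatives and lost after quantile (0.0516), centred (0.0590) and cyclic loess (0.0517) normalization. Mamdc2 had one of 0.94 (SE 0.16, adjusted p = 0.0885). Shoc2, a scaffold of RAS signalling, had one of 0.22 (adjusted p = 0.645), Frmpd3 one of 0.21 and Rab11fip1, a protein of recycling endosomes, one of 0.21.

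**Figure D5:**
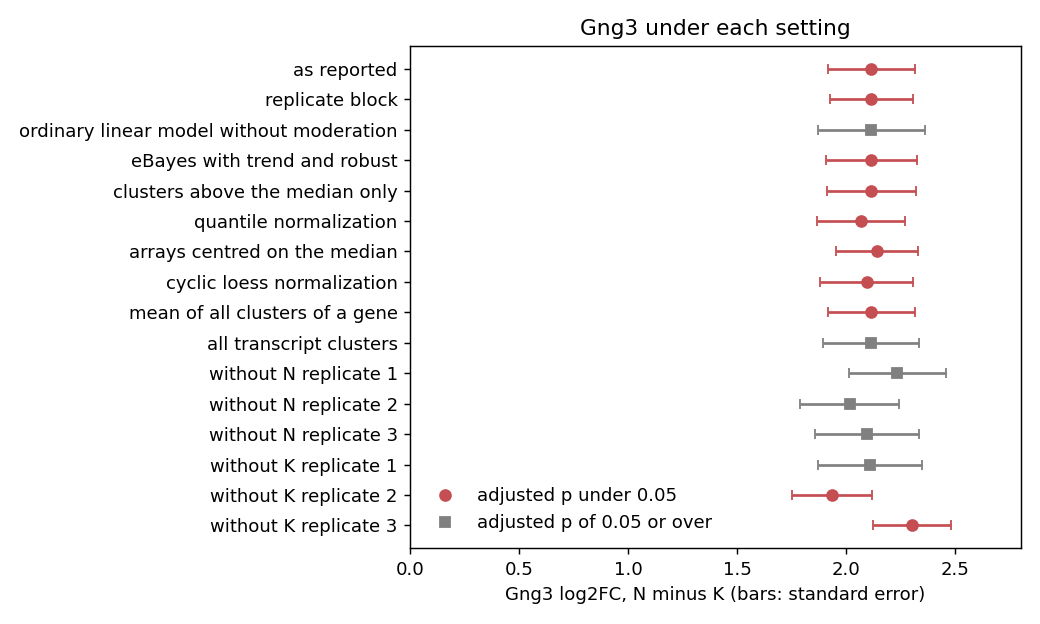
Log2FC of Gng3 (N minus K, horizontal axis) as reported and under 15 alternatives, with bars for the standard error and colour for the side of the threshold. Every value is positive, between 1.94 and 2.30, and 9 of the 15 alternatives kept an adjusted p under 0.05.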

How the data were processed

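The values analysed were deposited log2 values, made by the authors from the scanned arrays in Partek with RMA, a method that subtracts background, brings the arrays to a common distribution and combines the probes of each transcript cluster. Versions and settings are not given in the sources used here. Of 34760 clusters, the 21640 with exactly 1 symbol in the array annotation were kept (1321 had several symbols and 11799 none) and reduced to 19937 genes by the highest mean over the 6 arrays. All 6 value columns were matched to the labels and 0 columns were left unused.

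The N and K arrays were compared in R 4.3.3 using limma 3.58.1 (lmFit and eBayes, no covariates), with 4 residual and 4.59 prior degrees of freedom and Benjamini-Hochberg adjustment over all 19937 genes at a threshold of 0.05. The fit was tested on simulated data. Only 3 arrays per group limit the precision.

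The members, the lists and the tests were chosen with earlier results of these data known. The rule for named genes took the 10 members, up to 3 genes of each pathway list and 2 of each marker list by smallest p, the 5 most correlated with Gng3 and the nearest gene on each side of it. Nes, Map2, S100b, Gnal, Dcx, Rbfox3, Syt1, Stmn2, Neurod1 and Tubb3 were added after their values were seen. The marker lists of oligodendrocytes, microglia, endothelium and pericytes are given by their medians only. Alternatives were the replicate number as a block, an ordinary linear model, eBayes with trend and robust, clusters above the median of 6.34 only, quantile, centred and cyclic loess normalization, averaging the clusters of each gene, all transcript clusters and each array left out. The methods' rule of an unadjusted p under 0.05 and a log2FC over 1 in size was applied as well. Places and promoter windows come from RefSeq on GRCm38.p6. Plots used Python 3.11.15 and matplotlib 3.10.9.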

Additional observations from a re-analysis of the deposited data

How the results depend on the processing

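Under 15 alternatives Gng3 kept its direction (log2FC 1.94 to 2.30), and under 9 of them its call. Of the 10 members, 0 were called in an ordinary linear model (Gng3 adjusted p = 0.463 by a t-test without moderation). Over all transcript clusters 0 were called (Gng3 adjusted p = 0.269 by limma), while leaving out single arrays gave 0 to 1. Over all genes the count of calls was 31 as reported, 1 in the ordinary model, 12 after quantile normalization (7 higher, 5 lower in N), 3 with arrays centred on the median (2 higher), 12 after cyclic loess, 0 over all transcript clusters (2174 at an unadjusted p under 0.05) and 98 by the methods' rule, and leaving out single arrays gave 0 to 21. The causes were not tested. The pathway lists had 0 calls throughout. Directions turned for small differences only: the log2FC of Gng4 was 0.0062 with centred arrays, and that of Hnrnpul2 was -0.012 after quantile normalization and -0.041 after cyclic loess. With single arrays left out, log2FC lay between -0.11 and 0.063 for Gng4, -0.058 and 0.16 for Gng7, -0.0018 and 0.31 for Gng11, -0.15 and 0.017 for Gnb1, -0.0066 and 0.33 for Bscl2, and -0.082 and 0.18 for Hnrnpul2.

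Same-numbered N and K arrays deviated together only weakly (correlations 0.0434, 0.0429 and 0.121). For arrays of unlike number the correlations lay between -0.144 and 0.113. The labels do not say whether a shared number marks a shared preparation, and these correlations cannot decide it. With the replicate number as a block, 41 genes and 1 member were called, with Gng3 at an adjusted p of 0.0121 and Aqp4 at 0.0294 by limma.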

Other observations

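N replicate 3 stood apart for 3 G protein genes, noticed after their values were seen. Gnal, the olfactory-type alpha subunit that works with the gamma subunit of Gng7 in the striatum, was at 7.86 on that array, against 6.04 and 6.07 on the other N arrays. Its log2FC was 1.01 (SE 0.44, adjusted p = 0.585 by limma) and 0.41 without this array. Gng7 was also highest there (7.84, the other arrays between 7.39 and 7.49), and Gnb5 was lowest there (6.10, the other arrays between 6.70 and 6.93). Over the 10 members N replicate 3 was the highest array for 2 and the lowest for 2, as N replicate 1 was, and N replicate 2 was the highest for 2 and the lowest for 3. No test was made of these patterns.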
